A study of Bos taurus with 20 samples.

Results

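Genes of the secretory route through the endoplasmic reticulum were followed in bovine endometrium on day 18 after oestrus: SEC61A1, HSPA5, KDELR2 and CKAP4. They are 4 of the 148 genes that carry a single symbol on the 2 arrays of the study, and 8 of its 339 clones with such a symbol. All clones with one of these symbols were taken, 1 on the array named 18KB and 7 on the array named 18KO. SEC61A1 is on both arrays, and the other genes are on the 18KO array only. The genes were selected on their function together with measured values that were already known, namely that their spots were dimmer in pregnant than in control animals. Their difference between these groups is therefore a description, given without p-values. Where a gene is said to be called, this places it beside the share of its array past the same threshold and is no independent evidence of the difference.

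Proteins that are to be secreted or placed in a membrane enter the endoplasmic reticulum through the SEC61 channel and fold there with the help of chaperones. HSPA5, also known as BiP or GRP78, is the main chaperone of the compartment and also restrains the sensors of the unfolded protein response. Chaperones that escape to the Golgi apparatus are recognised by the KDEL receptors, of which KDELR2 is one, and are carried back. CKAP4, also known as CLIMP-63, is a membrane protein that shapes the sheets of the rough endoplasmic reticulum and links them to microtubules. Before the bovine conceptus attaches, it depends on proteins and nutrients that the endometrium releases into the uterine lumen, and the stroma of the tissue produces large amounts of collagen.

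The animals were Simmental (Deutsches Fleckvieh) heifers, each brought into heat with a single injection of the prostaglandin analogue cloprostenol. The 4 pregnant heifers (316, 426, 447 and 448, aged 17 to 20 months) were inseminated with frozen sperm, and an intact conceptus was found and taken out at slaughter. The 6 control heifers (330, 404, 427, 434, 440 and 449, aged 18 to 22 months) received the sperm-free supernatant of semen from the same bull and were slaughtered on day 18 of the cycle. Tissue was cut with a scalpel from the lamina propria of the endometrium between the caruncles, in the caudal part of the ipsilateral horn. Both arrays were hybridised together in a single vial with the phosphorus-33 labelled cDNA of 1 animal. Each array holds 1536 spotted clones. The 18KB clones come from a library enriched for transcripts of pregnant animals and the 18KO clones from a library enriched for those of controls. Each sample is 1 animal with 1 column per array, so the spread within a group holds differences between animals and between hybridisations.

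The labels record that the first 18KO hybridisation of pregnant 316 was blurred, and that its values come from a later one placed by ratios to a pair of other samples. Column medians were higher in pregnant (2.50 to 3.18) than in control animals (1.39 to 1.90) on the 18KB array and overlapped on the 18KO array (1.67 to 2.36 against 2.03 to 3.90), where control 449 was the brightest column. Stroma was represented among named genes by 6 of 14 markers on the 18KO array, smooth muscle by 2 of 11 and epithelium by 1 of 13 (CLDN4). No marker of endothelium (0 of 8) or of leukocytes (0 of 14) carries a name on either array. In bulk tissue, fewer cells of a type and less RNA per cell cannot be told apart.

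Spot intensities of all 4 genes were lower in pregnant than in control endometrium. On intensities as deposited, the 4 pregnant animals lay below all 6 controls in each gene. For HSPA5 this separation was lost once column medians were subtracted. The difference was largest for CKAP4 (4.01-fold) and HSPA5 (2.67-fold), and close to 2-fold for SEC61A1 and KDELR2. Values per animal are the geometric mean intensity over the clones of a gene, and differences are on the log2 scale, pregnant minus control, with limma's standard error.

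**Figure D1:**
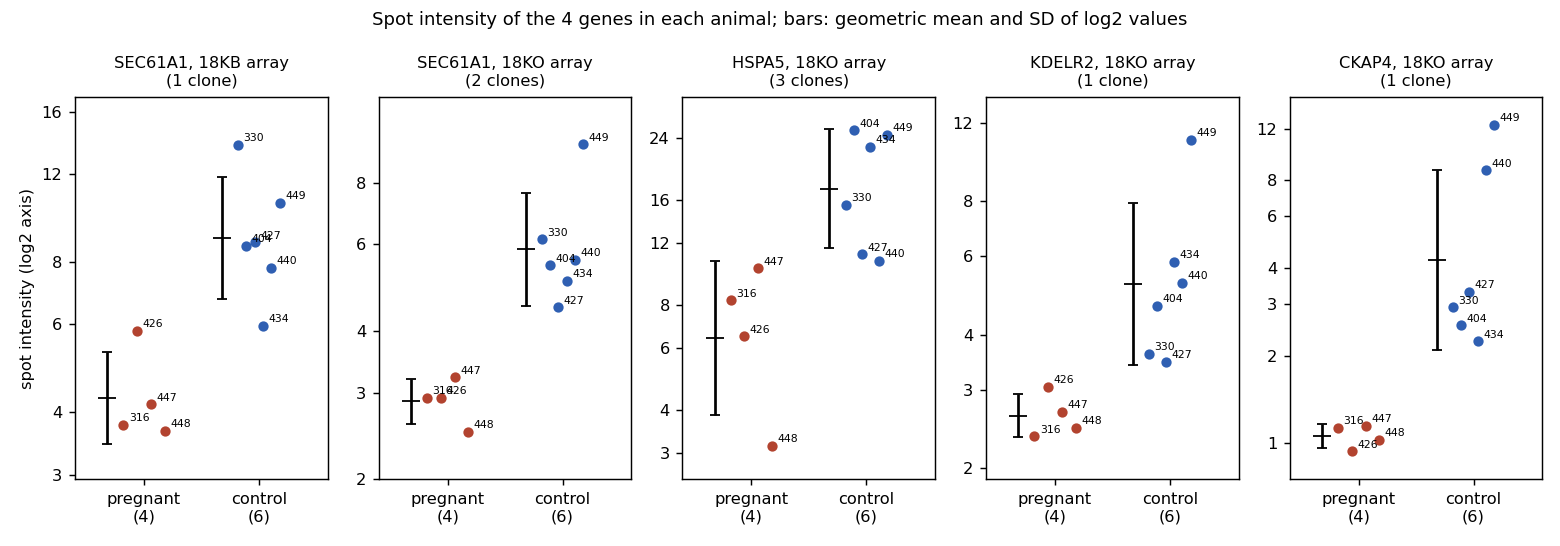
Spot intensity (log2 axis) of each gene in each animal, with 4 pregnant animals in red and 6 controls in blue; the black bars give the geometric mean and the SD of the log2 values. In every panel the highest pregnant animal lies below the lowest control, by the smallest margin for SEC61A1 on the 18KB array (5.82 against 5.96).

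SEC61A1, the pore-forming subunit of the channel, was measured by 1 clone on the 18KB array. Its intensity was 3.78 in pregnant 316, 5.82 in 426, 4.15 in 447 and 3.67 in 448, and in controls it ran from 5.96 through a median of 8.69 to 13.73. Pregnant 426 and control 434 nearly met, and control 330 was the brightest. The difference was -1.06 ± 0.28 (95% interval -1.66 to -0.46), or 2.09-fold lower. On the 18KO array, with 2 other clones, the intensities were 2.92, 2.92, 3.22 and 2.50 in pregnant 316, 426, 447 and 448, and from 4.47 through 5.51 to 9.57 in controls. Pregnant animals were close to each other (SD 0.15 on the log2 scale, n = 4), and control 449 stood highest. The difference was -1.02 ± 0.34 (95% interval -1.73 to -0.31).

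The same RNAs, hybridised to both arrays at once except for pregnant 316, gave SEC61A1 nearly the same difference on both arrays. The difference between the arrays was 0.04 ± 0.37 (95% interval -0.72 to 0.80, limma fit over the 10 genes on both arrays, 4 pregnant and 6 control animals). Since the gene was chosen with both decreases known, their closeness is a description too. With the animal as a block the estimate was the same with a smaller standard error (0.25). This result depended on the scale of the columns: with equal column medians the decrease was larger on the 18KB array (-1.89) than on the 18KO array (-0.69), and the difference between arrays was 1.20 ± 0.31. On intensities as deposited, individual animals did not keep their order. Control 330 lay 0.62 above its group mean on the 18KB array but 0.07 on the 18KO array. Control 449 lay 0.24 and 0.71 above it. With column medians subtracted, control 330 was the highest control on both arrays (3.03 on the 18KB and 1.46 on the 18KO array, log2 scale). Control 449 was next on both (2.92 and 1.30). Among pregnant animals the order still changed, with 426 highest on the 18KB array (0.93) and 448 on the 18KO array (0.59).

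The 2 SEC61A1 clones of the 18KO array differed in spread. The first (18KO-09-C07) had intensities of 2.96 to 3.64 in pregnant animals and 5.41 to 9.19 in controls, a difference of -1.11 ± 0.23 without overlap. The second (18KO-13-E04) ran from 1.86 to 2.89 in pregnant animals and from 2.17 to 12.54 in controls, a difference of -0.94 ± 0.39 with overlap. The log2 ratio of the first to the second clone was 0.56 ± 0.73 (SD, n = 10) and reached 2.08 in control 427 and -0.78 in control 449.

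HSPA5, the chaperone, was represented by 3 clones of the 18KO array. Its mean intensity was 8.22 in pregnant 316, 6.49 in 426, 10.2 in 447 and 3.16 in 448, and in controls it ran from 10.7 through a median of 19.1 to 25.3. Pregnant 447 and control 440 nearly met, pregnant 448 was lowest by far, and controls 404, 434 and 449 were the brightest. The difference was -1.42 ± 0.42 (95% interval -2.30 to -0.54). Without pregnant 448 it was -1.08 ± 0.41.

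All 3 HSPA5 clones pointed the same way. The brightest (18KO-13-D10) had intensities of 6.69 to 22.48 in pregnant animals against 23.98 to 62.86 in controls, with a difference of -1.61 ± 0.39. The other 2 gave -1.45 ± 0.40 (18KO-14-D09, with overlapping groups) and -1.19 ± 0.35 (18KO-14-B03). The log2 ratio of the brightest clone to 18KO-14-D09 was 1.09 ± 0.19 (SD, n = 10 animals) and to 18KO-14-B03 2.18 ± 0.41, so the first pair tracked each other more closely from animal to animal.

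KDELR2, the retrieval receptor, had 1 clone on the 18KO array. Its intensity was 2.36 in pregnant 316, 3.05 in 426, 2.68 in 447 and 2.47 in 448, and ran from 3.47 through a median of 4.94 to 10.99 in controls. The pregnant animals lay within a narrow band, and control 449 stood well above the next control (5.84). The difference was -0.98 ± 0.37 (95% interval -1.77 to -0.19), the smallest of the 4 genes, and -0.77 ± 0.24 without control 449.

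CKAP4, the sheet-shaping membrane protein, had 1 clone on the 18KO array. Its intensity was 1.13 in pregnant 316, 0.94 in 426, 1.15 in 447 and 1.03 in 448, and ran from 2.24 through a median of 3.12 to 12.35 in controls. The 4 pregnant animals were nearly alike (SD 0.13 on the log2 scale, n = 4), whereas controls spread widely (SD 1.02, n = 6), because controls 440 (8.64) and 449 (12.35) stood well above the other controls (2.24 to 3.31). The difference was -2.00 ± 0.47 (95% interval -3.00 to -1.01), and -1.70 ± 0.38 without control 449 or -1.80 ± 0.48 without control 440.

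**Figure D2:**
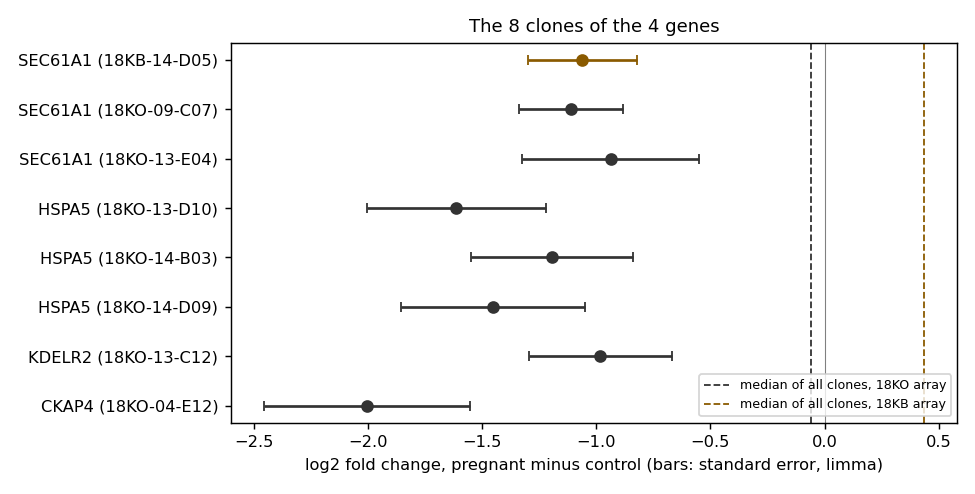
Log2 fold change of the 8 clones, pregnant minus control, with limma's standard error (4 pregnant animals, 6 controls); dashed lines mark the median of all 1536 clones of each array. All 8 clones lie between -2.00 (CKAP4) and -0.94 (a clone of SEC61A1), below both medians (-0.06 on the 18KO and 0.44 on the 18KB array).

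How common such decreases were on each array gives the scale for these values. A clone or gene counted as called if limma's adjusted p was below 0.01 and the groups differed by 2-fold or more. Of the 7 clones of the 18KO array 2 were called lower (CKAP4 and 18KO-09-C07), where 6.32% of all clones were, and 5 had every pregnant animal below every control, where 12.2% of all clones did. At the level of named genes, 2 of the 4 were called lower on the 18KO array (HSPA5 and CKAP4, not SEC61A1 and KDELR2), where 59.7% of the 72 named genes were. All 4 had groups that did not overlap on intensities as deposited, which held for 62.5% of named genes. The named clones are chiefly those that the authors sequenced after calling them different in these same animals, so neither count says anything particular about the secretory genes.

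On the 18KB array, where clones of pregnant animals were enriched, decreases were rare on intensities as deposited. With equal column medians they were not, at 174 clones called lower and 152 higher. The SEC61A1 clone was among the 0.716% of clones called lower and the 1.82% in which every pregnant animal lay below every control. Of 86 named genes 10.5% were called lower and 8.14% had pregnant animals below all controls, SEC61A1 among them. Its call was lost without pregnant 448 (-0.99) or control 330 (-0.94). The call of HSPA5 on the 18KO array was lost without any 1 of pregnant 316, 426 or 448 or controls 404, 434 or 449, with values from -1.08 to -1.54, and SEC61A1 was called there without control 427 (-1.10). CKAP4 kept its call without any 1 of the 10 animals. When clones without a name were adjusted jointly with the named genes, 0 of these genes were called on either array, CKAP4 included. That step joined p-values of separate fits over genes and over clones. In the fit over all 1536 clones of an array, the clones of CKAP4, 18KO-09-C07 and SEC61A1 on the 18KB array were called. No clone of HSPA5 or KDELR2 was called in it.

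**Figure D3:**
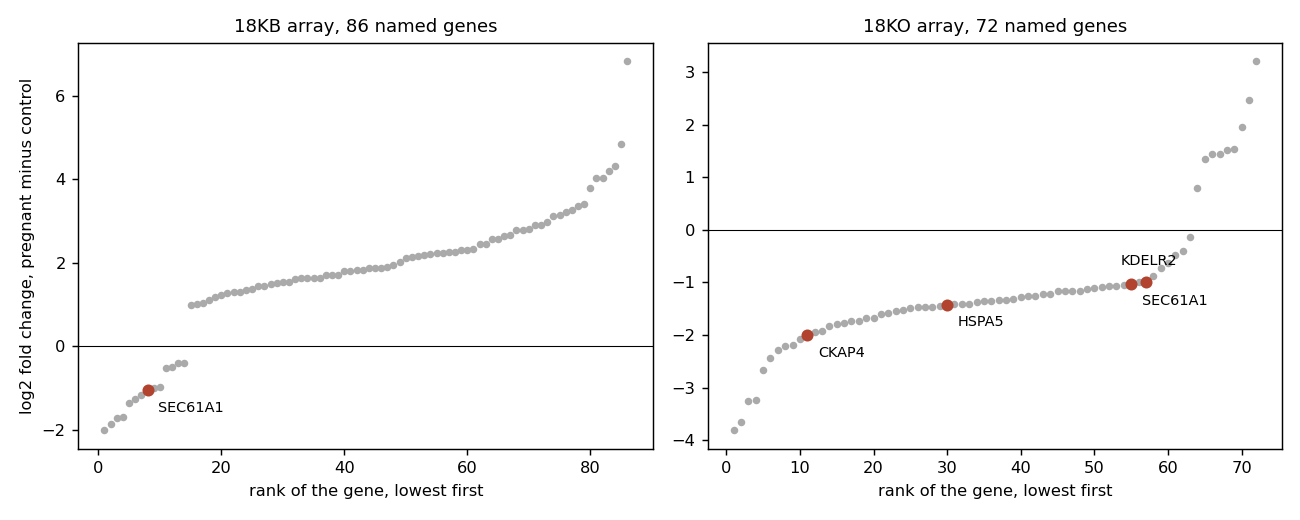
Log2 fold change of all named genes ranked from the lowest, with the secretory genes in red: 86 genes on the 18KB array (left) and 72 on the 18KO array (right). On the 18KO array CKAP4 ranks 11 and HSPA5 30 from the bottom, with SEC61A1 at 55 and KDELR2 at 57, and on the 18KB array SEC61A1 ranks 8.

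The size of the decreases depended on how the columns were scaled, and their direction did not. Setting column medians equal moved the array-wide median difference, on the log2 scale, from -0.06 to 0.27 on the 18KO array and from 0.44 to -0.39 on the 18KB array. The genes of the 18KO array then had values of -1.67 for CKAP4, -1.09 for HSPA5, -0.69 for SEC61A1 and -0.65 for KDELR2, and CKAP4 and HSPA5 were again the genes called. Subtracting column medians also brought pregnant 447 (2.23 on the log2 scale) above control 440 (2.14) for HSPA5. In the other genes the pregnant animals stayed below all controls. The split of called clones moved from 97 lower and 18 higher to 93 lower and 82 higher on the 18KO array, and from 11 lower and 315 higher to 174 lower and 152 higher on the 18KB array. Among called named genes of the 18KB array it moved from 9 lower and 69 higher to 12 lower and 39 higher. With the age of the animals as a covariate all 4 genes were called on the 18KO array, at -2.03 ± 0.52 for CKAP4, -1.71 ± 0.40 for HSPA5, -1.24 ± 0.35 for KDELR2 and -1.17 ± 0.32 for SEC61A1.

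**Figure D4:**
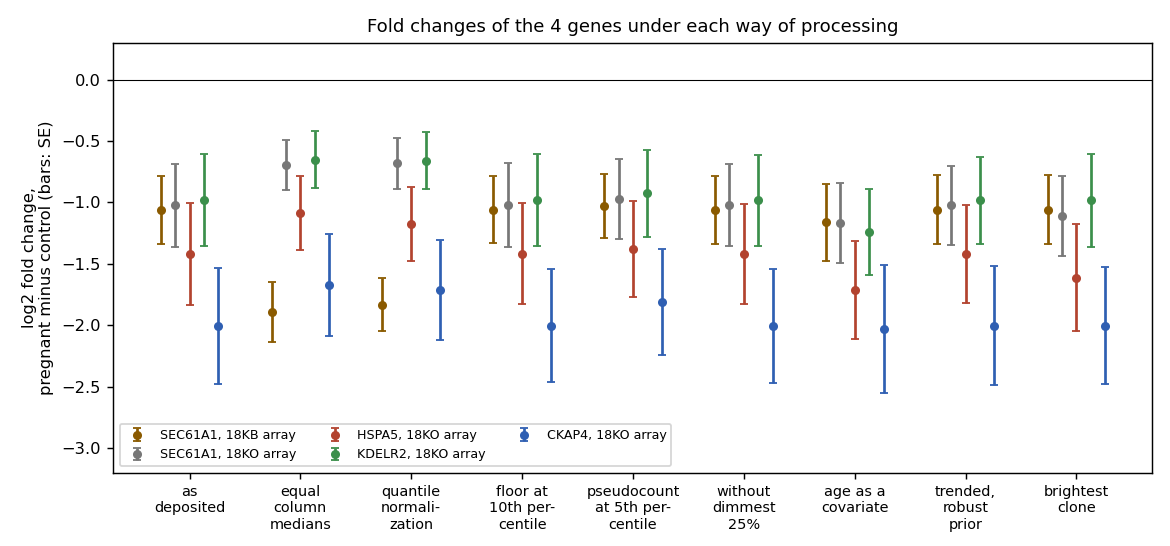
Log2 fold change with its standard error for each gene and array under 9 ways of processing the same intensities. Every value lies below 0; equal column medians and quantile normalization bring the 18KO values nearer to 0 (SEC61A1 -0.69 and -0.68) and take SEC61A1 on the 18KB array further down (-1.89 and -1.83).

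Within the groups, where the contrast between pregnant and control animals plays no part, no pattern shared by all 4 genes was seen after column medians were subtracted. Over the 6 controls, after the median of each column was subtracted, HSPA5 ran opposite to CKAP4 (Pearson r = -0.84, exact permutation p = 0.0361; Spearman rho = -0.89, exact permutation p = 0.0333). Neither passed adjustment over the 6 pairs of genes (adjusted exact permutation p = 0.217 for r and 0.2 for rho). Without controls 404 and 440, the animals farthest from the median of HSPA5, r was -0.68 over 4 controls, and it was -0.13 when no column median was subtracted. The other 5 pairs lay between -0.43 (HSPA5 with SEC61A1) and 0.58 (KDELR2 with CKAP4), with adjusted exact permutation p from 0.561 to 0.971. On intensities as deposited 5 of the 6 pairs were positive, up to 0.82 for KDELR2 with SEC61A1 (adjusted exact permutation p = 0.237). That scale keeps differences in brightness between columns, and whether these had a part in the correlations was not tested.

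**Figure D5:**
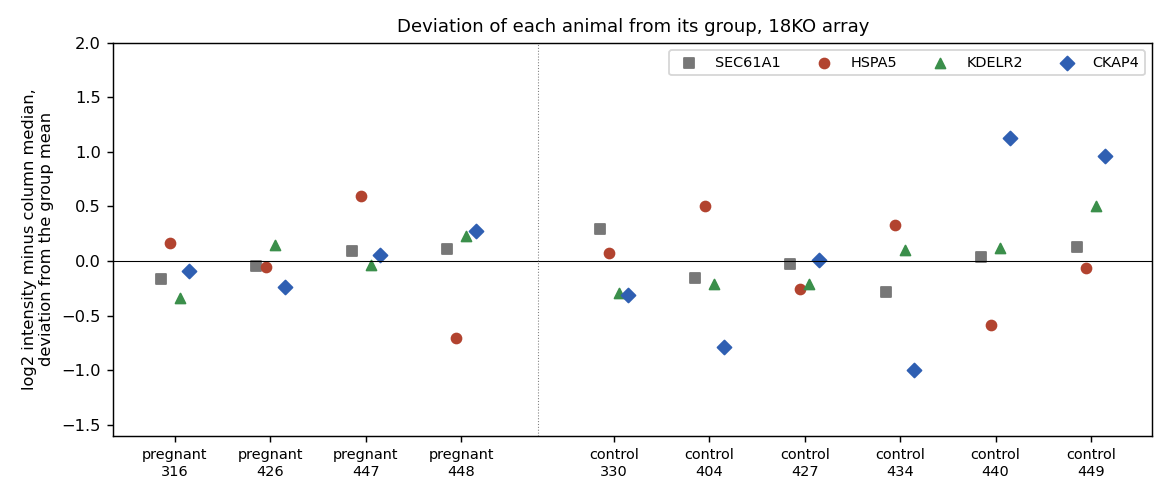
Deviation of each animal from its group mean on the 18KO array, in log2 intensity after the column median was subtracted, for the 4 genes. HSPA5 (circles) lies low in control 440 and high in control 404, where CKAP4 (diamonds) lies high and low.

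The named genes with the most similar pattern also differed from gene to gene. Likeness was the Pearson correlation of deviations from the group mean over 10 animals, with column medians subtracted, among 71 other named genes of the 18KO array, and is given as a description. CKAP4 was most like SOX4, a transcription factor (0.94), S100G, a calcium-binding protein (0.84), and CLDN10, a claudin of tight junctions (0.78). As deposited, SOX4 and S100G were, like CKAP4, highest in control 449 (3.52 and 53.0) and next in control 440 (1.75 and 23.7). CLDN10 was highest in control 440 on that scale. With column medians subtracted, as in the correlation, CKAP4 itself was highest in control 440 (1.83) and next in control 449 (1.66). HSPA5 was most like ZFP36, a protein that destabilises messenger RNAs (0.82), PENK, the enkephalin precursor (0.71), and the metallothionein MT2A (0.68), although PENK was higher in pregnant animals (3.20 ± 0.48) and ZFP36 hardly differed (-0.14 ± 0.58). KDELR2 was most like PITPNA, a phosphatidylinositol transfer protein (0.71), the retinol carrier RBP4 (0.70) and STRA6, the receptor for that carrier (0.63). SEC61A1 was most like the serotonin receptor HTR4 (0.76), the uterine serpin SERPINA14 (0.73) and SOX4 (0.72) there, and like SPATS2L (0.83), LDHA (0.69) and SHISA5 (0.58) among 85 genes of the 18KB array. HTR4 was a dim spot, at 0.20 to 0.27 in pregnant animals and a median of 0.41 in controls. The 10th percentile of the 18KO array was 0.37. In this ranking no secretory gene was among the 3 most similar to another: HSPA5 ranked 65 of 71 for CKAP4, while CKAP4 ranked 7 for KDELR2. The ranking depended on the scale for SEC61A1 on the 18KO array. On intensities as deposited it correlated with KDELR2 at 0.78 and CKAP4 at 0.70, above HTR4 (0.65) and SERPINA14 (0.48) and below SOX4 (0.82). For HSPA5, KDELR2 and CKAP4 the 3 genes named above stayed ahead of every secretory gene on that scale.

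Few other genes of the same pathways carry a name. Of 33 listed genes of translocation and glycosylation and 38 of transport between the endoplasmic reticulum and the Golgi apparatus, none (0) besides the 4 was named on either array. Of 41 chaperones and folding enzymes 1 was named, SERPINH1, the collagen chaperone HSP47, on the 18KO array. Its intensity ran from 1.51 to 4.07 in pregnant animals and from 4.50 to 11.54 in controls, without overlap. Its decrease of -1.46 ± 0.39 was called, as were those of 59.7% of the 72 named genes of that array. Of 27 genes of the unfolded protein response 1 was named, NUPR1, a nuclear protein induced by stress, on the 18KB array. It differed in the opposite direction, with 6.68 to 11.1 in pregnant animals and 0.931 to 1.56 in controls, and was called higher (2.89 ± 0.26 over 14 clones). Being higher was usual there: the median difference of the 86 named genes of the 18KB array was 1.85, and 69 of them were called higher.

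Collagens and smooth muscle markers were lower in pregnant animals, as were the secretory genes and most named genes of the 18KO array. The 1 named marker of epithelium, on the 18KO array, and the 3 named trophoblast markers, on the 18KB array, were higher. Of 13 named collagen and matrix genes on the 18KO array 11 were called lower and 0 higher, with a median of -1.73, where the median of all 72 named genes was -1.34 and that of the 4 secretory genes -1.22. Of all 72 named genes of the 18KO array 59.7% were called lower. On the 18KB array 5 of 6 collagen and matrix genes were called lower and 1 higher, where 10.5% of the 86 named genes were called lower. Of the 6 stroma markers of the 18KO array 4, all collagens, were called lower and 1, NR2F2, higher, which is near the share of all named genes called lower there. Their summed intensity was 69.5 to 275 in pregnant animals and 328 to 1086 in controls, and that of the smooth muscle markers ACTA2 and MYLK, both called lower, was 4.81 to 9.33 against 14.7 to 33.3. The epithelial marker CLDN4 was higher in pregnant animals, at 18.9 to 32.6 against 1.75 to 19.7. None of these markers had an animal at 0. CLDN10, a claudin of the 18KO array outside the marker lists, had a lower mean in pregnant animals (-1.93 ± 0.74) and was not called. Trophoblast markers, with 3 of 13 named on the 18KB array, summed to 1.44 to 41.7 in pregnant animals and 0.955 to 1.79 in controls. On that array 69 of the 86 named genes were called higher. Whether a shift in the makeup of the tissue had a part in the lower values of the secretory genes was not tested.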

How the data were processed

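Each of 10 RNA samples was hybridised to 2 spotted cDNA arrays, giving 20 samples. The deposited files give 1 linear intensity per spot and animal, made by the authors. Background subtraction and column scaling are steps not given in the sources used here. Before log2 was taken, anything below 0.01 was set to 0.01. Clones were named through the platform's gene table, and clones of a gene were averaged; all 4 genes were found under the same symbol by gene identifier in the RefSeq table of ARS-UCD2.0.

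Clones and genes were fitted per array with limma 3.58.1 in R 4.3.3 (Benjamini-Hochberg adjustment over all clones or all named genes), which was tested on simulated data. For the genes named, no p-value of the contrast is given. The 10 genes on both arrays were fitted with an interaction of status and array. Animal numbers in the labels pair the arrays: deviations over the 10 shared genes correlated at 0.352 to 0.928 within 9 animals and at -0.08 in pregnant 316. Correlations in controls used exact two-sided permutation over 720 orders. Alternatives were other scalings, floors, filters, priors, age as a covariate and leaving out each animal. Columns correlated at 0.935 to 0.982 within groups and none was a copy. The number of other per-sample columns was 0. Figures used matplotlib 3.10.9.

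Members, gene lists and tests were chosen with earlier results of these data known. The text names the 4 genes, the genes of the fixed endoplasmic reticulum lists that carry a name, and per gene the 3 named genes most like it. Markers and matrix genes are given by counts, with CLDN4, NR2F2, ACTA2 and MYLK by name.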

Additional observations from a re-analysis of the deposited data

Results flagged for a closer look

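One value among 20 sets of animals checked (8 clones and the means of HSPA5 and SEC61A1 on the 18KO array, in each group) lay far from the others. In the HSPA5 clone 18KO-14-B03, pregnant 448 had an intensity of 1.5, where the other 3 pregnant animals had 4.13 to 4.43. Pregnant 448 was also the lowest pregnant animal in the other 2 clones of the gene (3.13 and 6.69), where the gap was smaller relative to the spread. Chance alone flags about 1 in 20 such sets.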

How the results depend on the processing

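Each gene stayed lower in pregnant animals under all 18 alternatives: CKAP4 from -2.19 to -1.67 (called in 18), HSPA5 from -1.71 to -1.08 (12), KDELR2 from -1.24 to -0.65 (1), and SEC61A1 from -1.17 to -0.68 on the 18KO (5) and from -1.89 to -0.94 on the 18KB array (16). The number of secretory genes called lower on the 18KO array was 4 with age as a covariate, 1 to 3 when 1 animal was left out, and 0 when unnamed clones joined the named genes in 1 adjustment, a step added after seeing the data and not counted among the 18. On the 18KB array it was 0 under that step and 0 to 1 when 1 animal was left out. The added step joined p-values of separate fits over genes and over clones. Over all named genes, 50 were called on the 18KO array, 20 to 51 with 1 animal left out and 13 under the joint adjustment, and 78 on the 18KB array, 51 with equal column medians. Called 18KO clones numbered 115, or 175 with equal column medians, 69 with a floor at the 10th percentile, and 58 to 114 with 1 animal left out. The cause was not tested.

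The difference of SEC61A1 between arrays was 0.0376, also with the animal as a replicate block, from -0.0728 to 0.178 with 1 animal left out, and 1.20 with equal column medians. In controls the correlation of HSPA5 with KDELR2 (-0.24) was 0.56 on deposited intensities and 0.11 without controls 404 and 440, that of HSPA5 with SEC61A1 (-0.43) 0.46 and that of KDELR2 with SEC61A1 (-0.02) 0.82 on deposited intensities. Precision is limited by there being 4 pregnant and 6 control animals.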
